A study of Homo sapiens with 4 samples.

Results

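The transcripts of 8 genes that start, carry or restrain caspase activation were followed in the human multiple myeloma line JJN3 after knockdown of the kinase WNK1: the initiator caspases CASP2, CASP8, CASP9 and CASP10, the apoptosome scaffold APAF1, the mitochondrial protein DIABLO, and the inhibitors of apoptosis XIAP and BIRC2. They were chosen as a named list, by symbol, from the 60682 genes of the count table, and all 8 were found and were among the 14864 genes with enough counts to test. The study holds 4 RNA-seq libraries of total RNA. JJN3 is an established line of malignant plasma cells, and all libraries came from this 1 line. A pair of libraries (shWNK1 replicates 1 and 2) came from cells that had received a short hairpin RNA (shRNA) against WNK1, and the other pair (NS replicates 1 and 2) from cells that had received the NS shRNA, taken here as the control. The labels give neither the hairpin's sequence nor the time after transduction, and only 1 kind of WNK1 hairpin is named, so an effect of WNK1 loss and an effect of this hairpin on other transcripts cannot be told apart. Nor do they say whether replicates were separate cultures, so every p-value here reflects the scatter of 4 libraries that may differ for technical reasons alone.

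Caspases are proteases that cut after aspartate and lie in the cell as inactive precursors. In the mitochondrial route, cytochrome c released from mitochondria binds APAF1, which assembles into a wheel-shaped apoptosome that activates CASP9. In the death receptor route, ligand-bound receptors recruit the adaptor FADD and through it CASP8 and CASP10, while CASP2 is activated on a platform built by PIDD1 and CRADD. Both routes converge on downstream caspases that dismantle the cell. XIAP binds and blocks CASP9 and downstream caspases; BIRC2 (cIAP1) is a ubiquitin ligase of TNF receptor signalling that restrains NF-κB-inducing kinase; and DIABLO (Smac), once outside mitochondria, binds both inhibitors and relieves caspases from XIAP. Plasma cell tumours frequently carry altered signalling through BIRC2, its neighbour BIRC3 and TRAF3.

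The libraries held 16973521 to 20164122 counts. WNK1 itself stood at 18.6 and 19.6 CPM with shWNK1 and at 288 and 245 CPM with NS, where CPM is the count scaled to a common library size with edgeR's TMM factors. It fell in shWNK1 (log2 -3.80, SE 0.085, edgeR adjusted p = 4.2e-25), the direction the label calls for. All 10 plasma cell markers searched were expressed, with summed levels of 2834 and 2830 CPM (shWNK1) and 2691 and 2657 CPM (NS). Within these like sums 5 of the 10 fell, led by SDC1 (log2 -1.32, edgeR adjusted p = 3.3e-16) and MZB1 (-0.98, 6.3e-10), and 4 rose, led by SLAMF7 (2.96, 1.6e-11) and POU2AF1 (0.83, 1.3e-13); their part in the other results was not tested. Summed markers of T and NK cells (8 genes, 3 at 0 in all libraries), myeloid cells (7, 2 at 0) and erythroid cells (5, 2 at 0) stayed between 0.0971 and 1.17 CPM in each library. The stromal and epithelial list reached 121 to 138 CPM, nearly all of it EPCAM, and 3 of its 9 genes were at 0. In bulk RNA, fewer cells of a kind and less RNA per cell cannot be told apart.

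The 8 genes did not move as a block. DIABLO, CASP9, CASP2 and CASP10 rose, XIAP and CASP8 fell, and APAF1 and BIRC2 did not pass the test. A gene was called when its edgeR quasi-likelihood p, Benjamini-Hochberg adjusted over all tested genes, was under 0.05. By that rule 4 of the 8 rose, where 18.5% of all tested genes did, and 2 fell, where 20.2% did; called in either direction were 6, against 38.8% of all genes. The median log2 fold change of the 8 genes was 0.25, and that of all tested genes was 0.01. In a test against a fold change of 1.2, DIABLO, CASP9 and CASP2 were still called higher and XIAP lower, where 19.4% of all genes were called in either direction. The libraries of the groups did not overlap in CPM for 7 of the 8 genes, BIRC2 being the exception, and for 68.4% of all tested genes. The count of rises dropped to 2 without shWNK1 replicate 2 or without NS replicate 1, and that of falls to 1 without either shWNK1 library. With so broad a response, these shares describe the genes and mark nothing particular to them.

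**Figure D1:**
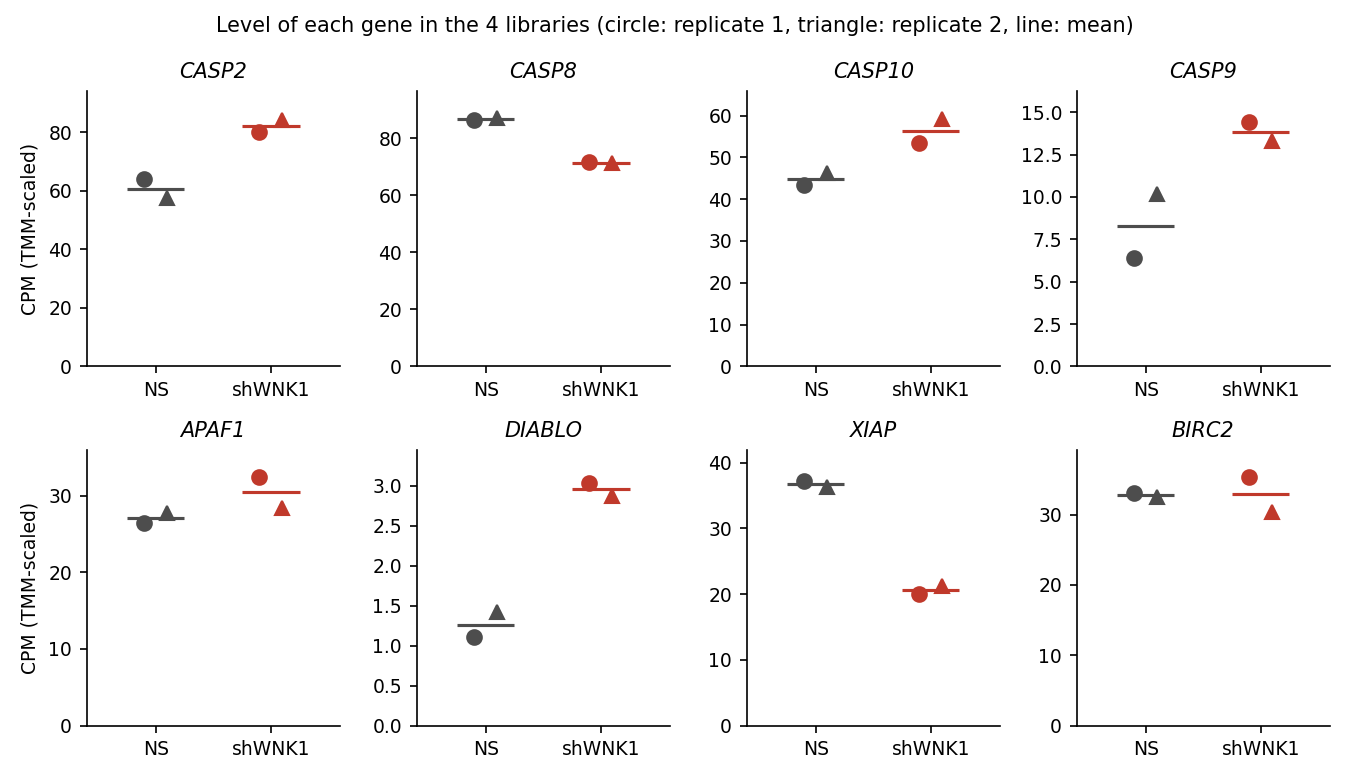
Level of each of the 8 genes in every library, as CPM on linear axes that start at 0 and differ between panels; grey is NS, red is shWNK1, circles are replicate 1, triangles replicate 2 and lines the mean of 2 libraries. XIAP drops from about 36.8 to 20.6 CPM, the red points of CASP2, CASP9, CASP10 and DIABLO all lie above the grey ones, and those of BIRC2 lie on both sides.

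A 6-base word in 3′ untranslated regions (UTRs) was looked up in these genes, since an earlier look at the same libraries found it more often in falling genes. Its shares are therefore descriptions, and they were not adjusted for UTR length. Taking the longest 3′ UTR of each gene, AGTATC occurred in 933 of 2805 genes that fell (33.3%, 95% Wilson interval 31.5 to 35), in 451 of 2489 that rose (18.1%, 16.7 to 19.7) and in 1381 of 6585 not called (21%, 20 to 22). Among the 8 genes it was in both that fell, XIAP and CASP8, in APAF1, which was not called, and in CASP9, which rose and holds 2 copies. CASP2, CASP10, DIABLO and BIRC2 did not hold it. A longer UTR has more room for any such word. The UTRs searched had 6798 bases in XIAP, 2952 in CASP9, 2945 in APAF1 and 1117 in CASP8. Those without the word had 4574 in CASP10, 3438 in CASP2, 763 in DIABLO and 487 in BIRC2. The transcript with the longest UTR was the annotation's principal transcript only for XIAP. The principal transcripts of CASP8 and CASP9 have 1629 and 2019 bases, of which 1437 and 1248 are coding. The UTR searched in CASP9 is thus longer than its whole principal transcript. Whether the CASP8 and CASP9 words lie in the principal transcripts was not tested. The sites are shown for the 4 genes that hold the word. Each is 30 bases of the transcribed strand, 5′ to 3′, with the word in capitals, read from the hg38 genome with GENCODE v29 transcripts:
CASP8: ctttaaaatttaAGTATCttttttcaaaaa
CASP9 copy 1: tacacacaaaccAGTATCgctcatagatca
CASP9 copy 2: aggctgttgatcAGTATCtgttaaactttt
APAF1: actctagttgtcAGTATCtgagttggacac
XIAP: gtgaccttagagAGTATCcagttctttcat
The words lie at chr2:201287657-201287662 (CASP8, plus strand), chr1:15492410-15492415 and chr1:15490891-15490896 (CASP9, minus strand), chr12:98733851-98733856 (APAF1, plus strand) and chrX:123911892-123911897 (XIAP, plus strand). They start at base 1063, 1369, 2888, 1370 and 4711 of the respective 3′ UTRs, in that order. Which 3′ ends JJN3 cells use was not tested, and carrying the word in the longest 3′ UTR did not sort the 8 genes by direction.

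Among the initiator caspases of the mitochondrial and stress routes, CASP9 and CASP2 both rose. CASP9 (ENSG00000132906.18, chr1:15490832-15526534, minus strand), the protease that the apoptosome activates, was counted 251 and 273 times with shWNK1 and 109 and 172 times with NS, which is 14.4 and 13.3 CPM against 6.39 and 10.2 CPM. Both shWNK1 libraries lay above both NS libraries, and the NS libraries differed from each other more than the shWNK1 libraries did. The increase was 1.67-fold (log2 0.74, SE 0.184, 95% interval 0.36 to 1.11, edgeR adjusted p = 0.00164). Its size rested on which NS library was used: without NS replicate 1, the lower one, the log2 change was 0.44 and the call was lost (edgeR adjusted p = 0.0521), and without NS replicate 2 it was 1.12. A stretch of 101 exon bases, 1.92% of the gene's exons, is shared with CELA2B on the opposite strand, which had 0 to 3 counts.

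CASP2 (ENSG00000106144.20, chr7:143288215-143307696, plus strand), an initiator linked to DNA damage and to extra centrosomes, had 80.1 and 84.4 CPM with shWNK1 and 64.0 and 57.6 CPM with NS. Again the groups did not overlap. It rose 1.35-fold (log2 0.44, SE 0.081, 95% interval 0.27 to 0.60, edgeR adjusted p = 5.4e-05) and was called under all 13 alternative settings tried, with log2 changes of 0.37 to 0.51. The genes of its activation platform gave no call: PIDD1, the scaffold, changed by 0.13 on the log2 scale (edgeR adjusted p = 0.46), and CRADD, the adaptor between PIDD1 and CASP2, by -0.29 (edgeR adjusted p = 0.225).

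CASP8 and CASP10, the related initiators of the death receptor route, went in opposite directions. CASP8 (ENSG00000064012.22, chr2:201233443-201287711, plus strand), which also holds back necroptosis, had 71.6 and 71.2 CPM with shWNK1 and 86.5 and 87.2 CPM with NS. Libraries of 1 group lay within 1 CPM of each other and the groups were apart. CASP8 fell 1.22-fold (log2 -0.28, SE 0.076, 95% interval -0.44 to -0.13, edgeR adjusted p = 0.00322). This small fall was not called against a fold change of 1.2 (edgeR adjusted p = 0.439), without shWNK1 replicate 1 (0.0611) or without shWNK1 replicate 2 (0.0612).

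CASP10 (ENSG00000003400.15, chr2:201182898-201229406, plus strand) had 53.5 and 59.2 CPM with shWNK1 and 43.5 and 46.3 CPM with NS, with no overlap. It rose 1.26-fold (log2 0.33, SE 0.090, 95% interval 0.15 to 0.51, edgeR adjusted p = 0.00382). That call was lost against a fold change of 1.2 (edgeR adjusted p = 0.268) and without shWNK1 replicate 2, the higher shWNK1 library (log2 0.25, edgeR adjusted p = 0.163). CFLAR, CASP10 and CASP8 lie one after the other on the plus strand of chromosome 2, 6211 and 4037 bases apart. CFLAR, the caspase-like protein that blocks CASP8 activation, changed by 0.07 on the log2 scale (72.2 and 76.2 against 68.8 and 73.0 CPM, edgeR adjusted p = 0.55). Along this cluster the log2 changes were thus 0.07, 0.33 and -0.28. Per length, the CASP8 level was 1.4 and 1.26 times that of CASP10 with shWNK1 and 2.08 and 1.97 times with NS. The same ratio to CFLAR was 3.08 and 2.9 with shWNK1 and 3.9 and 3.7 with NS. These ratios divide by all annotated exon bases, 7243 for CASP8 and 7581 for CASP10, where the principal transcripts have 1629 and 5928. CFLAR has 22.5 kilobases of exons and a principal transcript of 14672 bases. In CPM, CASP8 lay below CFLAR in both shWNK1 libraries and above it in both NS libraries. The size of the ratios depends on the lengths chosen, while their relative shift between the groups is the same for any fixed lengths.

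APAF1 (ENSG00000120868.14, chr12:98645290-98735433, plus strand), the scaffold on which CASP9 is activated, did not pass the test. Its levels were 32.4 and 28.4 CPM with shWNK1 and 26.4 and 27.7 CPM with NS, so that the lower shWNK1 library lay just above the higher NS library. The log2 change was 0.17 (SE 0.113, 95% interval -0.07 to 0.40, edgeR adjusted p = 0.265). The interval of CASP9, 0.36 to 1.11, overlaps this one, and whether APAF1 and CASP9 changed differently was not tested. In RPKM, which divides the CPM by the gene's exon length in kilobases, the APAF1 level was 1.53 and 1.45 times that of CASP9 with shWNK1 and 2.8 and 1.85 times with NS. That length was 7759 bases for APAF1 and 5269 for CASP9, where the principal transcripts have 5444 and 2019. Over the principal transcript lengths, CASP9 would stand higher than APAF1 in both shWNK1 libraries and in neither NS library. The exons of APAF1 share 750 bases (9.67%) with ANKS1B on the opposite strand, which had 0 counts in all 4 libraries.

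DIABLO had the largest fitted change of the 8 genes and the fewest counts. Its row (ENSG00000184047.19, chr12:122207668-122227456, minus strand) held 53 and 59 counts with shWNK1 and 19 and 24 with NS, or 3.04 and 2.87 CPM against 1.11 and 1.42 CPM. The groups did not overlap. The increase was 2.33-fold (log2 1.22, SE 0.392, 95% interval 0.42 to 2.02, edgeR adjusted p = 0.0134). DESeq2 gave an adjusted p of 0.0512, and the edgeR adjusted p was 0.0963 or 0.0753 when shWNK1 replicate 1 or 2 was dropped and 0.0625 when NS replicate 1 was.

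What the DIABLO row counts is not its usual coding transcript. All 1471 bases of the principal transcript, its 717 coding bases included, also belong to exons of other genes in the counting annotation. By the options in the file header, a fragment that overlaps 2 genes goes to neither. The row therefore holds reads from the remaining exon bases, and 2242 of the 6955 exon bases (32.2%) are shared. On the same strand, ENSG00000284934 covers 2187 of DIABLO's exon bases and ENSG00000256861 covers 1139; they had 0 to 2 and 0 counts. B3GNT4, on the opposite strand, covers 965 of these bases and had 24 and 17 counts with shWNK1 and 9 and 9 with NS. The principal transcripts of the other 7 genes share 0 bases with another gene. The level of the main DIABLO messenger RNA was thus not measured by this row, and the rise is that of the unshared exon bases.

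XIAP showed the firmest fall. XIAP (ENSG00000101966.12, chrX:123859724-123913979, plus strand), a direct inhibitor of CASP9, was counted 348 and 436 times with shWNK1 and 636 and 615 times with NS, giving 20.0 and 21.2 CPM against 37.3 and 36.3 CPM. The lower NS library was well above the higher shWNK1 library. XIAP fell 1.79-fold (log2 -0.84, SE 0.112, 95% interval -1.07 to -0.61, edgeR adjusted p = 3.0e-07). It was called under all 13 alternative settings, with log2 changes of -0.89 to -0.79. Of its processed pseudogenes, XIAPP1, XIAPP2 and XIAPP3 had 0 to 3 counts each.

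BIRC2 (ENSG00000110330.8, chr11:102347211-102378670, plus strand) was the gene whose groups overlapped. It had 35.4 and 30.4 CPM with shWNK1 and 33.1 and 32.5 CPM with NS, so the shWNK1 libraries bracketed the NS libraries. The log2 change was 0.00 (SE 0.108, edgeR adjusted p = 0.997). Its 95% interval of -0.22 to 0.22 did not overlap those of XIAP (-1.07 to -0.61) and CASP9 (0.36 to 1.11), though differences between genes were not tested. BIRC2 was not called under any of the 13 alternatives, where the log2 change ran from -0.11 to 0.10. BIRC3 (cIAP2), the related ubiquitin ligase 7808 bases before BIRC2 on the same strand, had 231 and 222 CPM with shWNK1 and 124 and 127 CPM with NS. It rose (log2 0.85, SE 0.063, edgeR adjusted p = 1.2e-12). The neighbour on the other side, TMEM123, a membrane receptor linked to oncotic cell death, fell (log2 -0.59, SE 0.060, edgeR adjusted p = 1.7e-09).

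**Figure D2:**
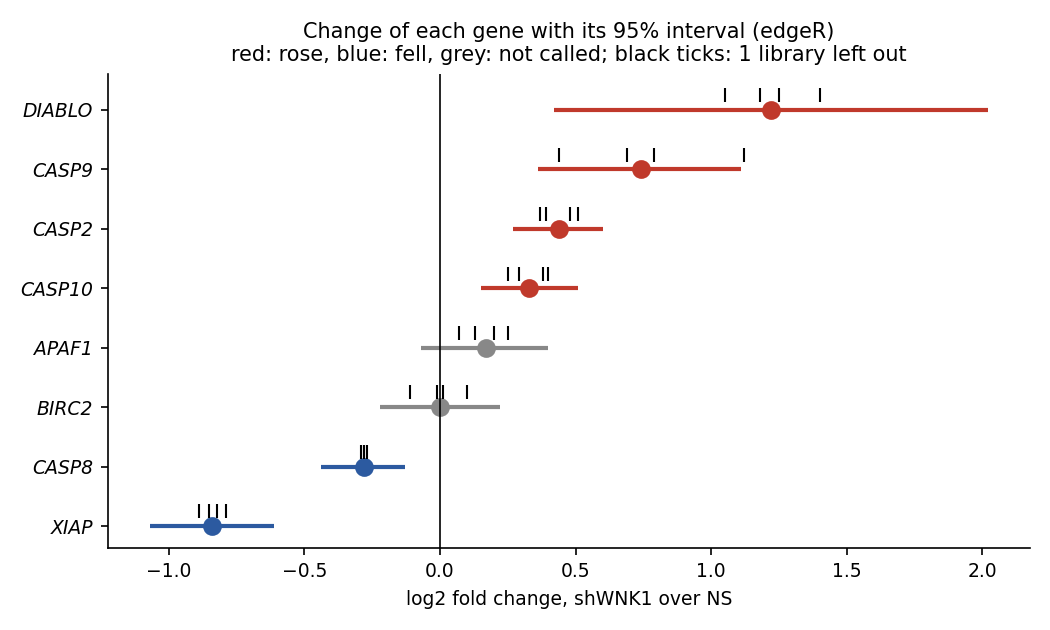
Fitted log2 fold change of each gene, shWNK1 over NS (points), with its 95% interval (bars), coloured by call; black ticks are the same estimate with 1 of the 4 libraries left out. DIABLO has the widest interval, 0.42 to 2.02, CASP9 the ticks farthest apart, 0.44 to 1.12, and the ticks of CASP8 nearly coincide.

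The promoter windows were compared because the 8 genes moved apart. Windows of 250 bases before the annotated start were found in RefSeq (GRCh38.p14) for 7 of the 8 genes, all but CASP10. The GC box, searched as GGGCGG on both strands with overlapping copies counted, occurs in 42.6% of 35116 such windows. CASP9 held 8 copies, CASP2 held 4, and CASP8, APAF1, DIABLO and BIRC2 held 1 each, while XIAP held 0. The CCAAT box (letters CCAAT, both strands) was in CASP2, APAF1 and DIABLO, against 32% of all windows. The E-box CACGTG (6.34% of all windows) and the NF-κB site (5.21%) were in none of the 7. CASP9, with the most GC boxes, and XIAP, with 0, are printed on their own strand, 5′ to 3′, with GGGCGG in capitals (CASP9 chr1:15524216-15524465, minus strand; XIAP chrX:123859803-123860052, plus strand):
CASP9: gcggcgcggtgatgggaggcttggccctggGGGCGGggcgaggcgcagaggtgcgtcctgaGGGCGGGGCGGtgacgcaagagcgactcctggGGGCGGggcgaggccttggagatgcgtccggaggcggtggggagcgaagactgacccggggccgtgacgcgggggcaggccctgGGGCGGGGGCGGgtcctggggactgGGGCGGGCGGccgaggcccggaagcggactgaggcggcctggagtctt
XIAP: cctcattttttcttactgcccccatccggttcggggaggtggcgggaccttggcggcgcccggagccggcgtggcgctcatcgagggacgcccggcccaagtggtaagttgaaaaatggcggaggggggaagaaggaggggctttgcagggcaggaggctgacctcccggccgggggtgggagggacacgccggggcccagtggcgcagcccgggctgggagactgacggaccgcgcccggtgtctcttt
The CASP9 window is 77.6% G and C and the XIAP window 69.6%. Windows with 1 copy or none belonged to 1 gene that rose (DIABLO), to both that fell and to both not called, and a match of letters is not a bound site.

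The order of the genes by level per length changed between the groups. With NS it ran from CASP8 (11.9 and 12 RPKM) through CASP2 (7.98 and 7.18), BIRC2 (7.31 and 7.17), CASP10 (5.74 and 6.1), XIAP (4.13 and 4.03), APAF1 (3.4 and 3.57) and CASP9 (1.21 and 1.93) to DIABLO (0.16 and 0.204). Of these neighbours, only CASP2 and BIRC2 overlapped between libraries. With shWNK1 it ran from CASP2 (9.99 and 10.5 RPKM) through CASP8 (9.89 and 9.83), CASP10 (7.06 and 7.81), BIRC2 (7.81 and 6.71), APAF1 (4.17 and 3.66), CASP9 (2.73 and 2.52) and XIAP (2.21 and 2.35) to DIABLO (0.437 and 0.413). Here only CASP10 and BIRC2 overlapped. By this measure XIAP moved from above APAF1 and CASP9 to below both, and CASP2 from below CASP8 to above it. The order rests on dividing by all annotated exon bases of a gene. These are 7243 bases for CASP8, whose principal transcript has 1629, and 9025 for XIAP, whose principal transcript has 8591. The principal transcripts of CASP2, APAF1 and CASP9 have 4225, 5444 and 2019 bases. With principal transcript lengths in place of exon bases, CASP8 would stand above CASP2, and XIAP below APAF1, in both groups. XIAP and CASP9 would overlap between libraries with NS, and XIAP would stand below CASP9 with shWNK1. The changes of order given above therefore rest on the length used. The XIAP level per length was 25.8 and 19.7 times that of the DIABLO row with NS and 5.06 and 5.69 times with shWNK1. The BIRC2 level was 45.6 and 35.2 times that row with NS and 17.9 and 16.3 times with shWNK1. The DIABLO row, divided by its full exon length, understates DIABLO in every library for the reason given above.

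**Figure D3:**
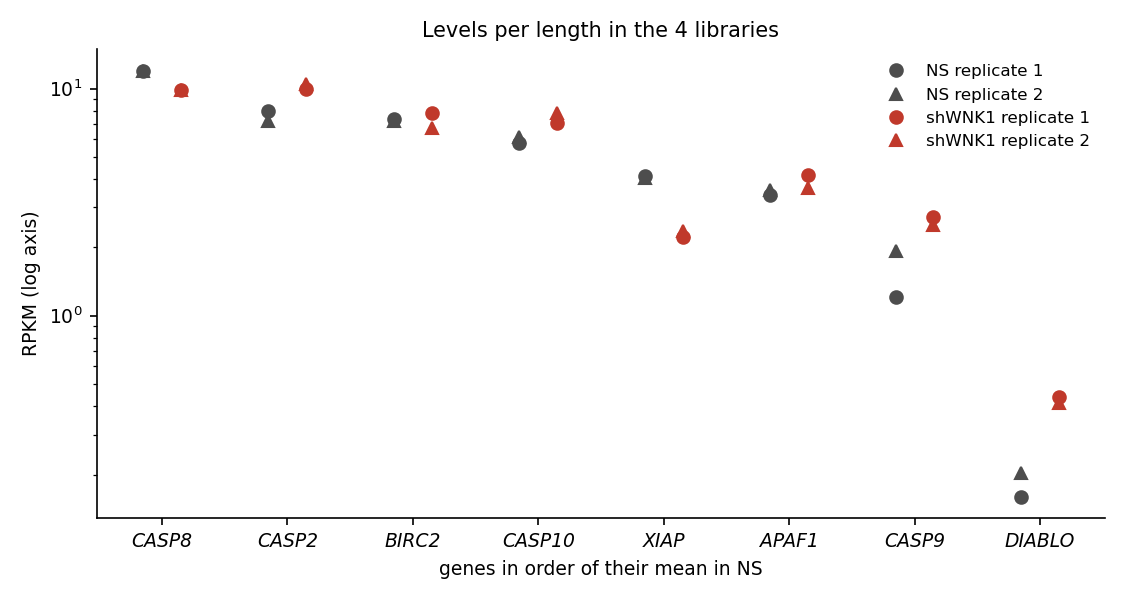
Level per length (RPKM over all annotated exon bases, log axis) of the 8 genes in each library, in the order of their NS mean; grey is NS, red shWNK1, circles replicate 1 and triangles replicate 2. The order between genes depends on the length used. The shWNK1 points of XIAP, at 2.21 and 2.35 RPKM, fall below those of APAF1 and CASP9 to its right, while its NS points lie above them.

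Around these genes, 71 further genes of the same routes were listed by role, and 60 had enough counts to test. Of those, 12 rose, 17 fell and 31 were not called, with a median log2 change of -0.08. The 18.5% and 20.2% of all genes that rose and fell are the background for each count here. Dropping shWNK1 replicate 1 gave 11 falls, and dropping shWNK1 replicate 2 gave 9. Against a fold change of 1.2, 8 rises and 8 falls were called; the calls lost included the rises of FAS, BIRC6, UBE2D1 and SPTAN1 and the falls of CASP1, PTMA, BIRC5, HTRA2, UBE2D2, RBCK1, DFFB and LMNB1. CASP6, which cuts lamins, fell by 0.64 (17.3 and 16.3 against 24.9 and 27.6 CPM, edgeR adjusted p = 1.1e-04). Of the inflammatory caspases, CASP1, which matures interleukin 1 beta, fell by 0.33 (edgeR adjusted p = 5.7e-04; 0.0516 without shWNK1 replicate 2). CASP4 was not called (log2 0.08, edgeR adjusted p = 0.507). CASP5, CASP12 and CASP14, which complete the list of inflammatory and other caspases, had too few counts to test.

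The partners of APAF1 and CASP9 included 2 falling genes and none that rose. CYCS, cytochrome c, which triggers apoptosome assembly, had 427 and 413 CPM with shWNK1 and 661 and 728 CPM with NS. It fell (log2 -0.73, SE 0.059, edgeR adjusted p = 1.0e-11). PTMA, prothymosin alpha, an inhibitor of apoptosome formation, fell by 0.24 (edgeR adjusted p = 7.8e-04; 0.151 without shWNK1 replicate 1). AVEN, which binds APAF1, was not called (log2 -0.08, edgeR adjusted p = 0.613).

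Of 11 death receptors and ligands, 8 were tested, 2 rose and 1 fell. TNFRSF1A, the main TNF receptor, rose (40.5 and 41.3 against 27.4 and 20.3 CPM, log2 0.78, edgeR adjusted p = 3.5e-06), as did FAS (115 and 112 against 95.9 and 89.1 CPM, log2 0.30, edgeR adjusted p = 0.00113). TNFRSF10A, the TRAIL receptor DR4, fell by 0.65 (6.13 and 5.50 against 9.44 and 8.75 CPM, edgeR adjusted p = 0.0094; 0.112 without shWNK1 replicate 2). The ligands FASLG and TNF had too few counts to test. Among the adaptors and inhibitors of the receptor complexes, 2 of 7 rose and 2 fell. RIPK1, the kinase that joins TNF receptor signalling to cell death, rose (33.3 and 34.4 against 23.0 and 21.6 CPM, log2 0.60, edgeR adjusted p = 6.2e-05). PEA15, which binds FADD and CASP8, also rose (log2 0.41, edgeR adjusted p = 7.1e-06).

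MLKL, the executor of necroptosis, had 7.05 and 8.03 CPM with shWNK1 and 24.6 and 23.3 CPM with NS, and fell by 1.66 (SE 0.149, edgeR adjusted p = 9.0e-11), the largest fall of the listed genes. FADD, the adaptor that recruits CASP8, fell by 0.58 (14.8 and 14.1 against 21.8 and 21.4 CPM, edgeR adjusted p = 7.2e-04). For FADD, 54.9% of the principal transcript is shared with other genes and so was not counted to it. RIPK3, the kinase upstream of MLKL, had too few counts to test.

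The remaining inhibitors of apoptosis were split. Besides BIRC3, BIRC6, a very large ubiquitin-conjugating enzyme, rose (284 and 283 against 249 and 218 CPM, log2 0.28, edgeR adjusted p = 6.0e-04). BIRC5 (survivin), which serves mitosis, fell by 0.32 (147 and 159 against 187 and 194 CPM, edgeR adjusted p = 1.4e-04). HTRA2, a mitochondrial protease that binds inhibitors of apoptosis much as DIABLO does, was the 1 tested gene of 3 antagonists. It fell by 0.35 (31.8 and 29.2 against 37.8 and 40.0 CPM, edgeR adjusted p = 0.00692; 0.135 without shWNK1 replicate 2), and 39.2% of its principal transcript is shared with other genes.

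Of 18 genes that work with BIRC2 at TNF receptors, 4 rose, 2 fell and 12 were not called. TRAF1, an adaptor that binds TRAF2 and BIRC2, had 31.9 and 32.8 CPM with shWNK1 and 9.91 and 11.3 CPM with NS. It rose the most of the listed genes (log2 1.61, SE 0.132, edgeR adjusted p = 1.3e-11). TRAF3, which brings NF-κB-inducing kinase to BIRC2 for destruction, rose (271 and 275 against 204 and 180 CPM, log2 0.51, edgeR adjusted p = 9.7e-08). MAP3K14, which is that kinase, rose as well (66.5 and 71.4 against 46.8 and 44.7 CPM, log2 0.59, edgeR adjusted p = 1.2e-06), with 18.5% of its principal transcript shared. The fourth rise was UBE2D1, a ubiquitin-conjugating enzyme (log2 0.51, edgeR adjusted p = 0.00321; 0.116 without shWNK1 replicate 2). TRAF2 itself was not called (log2 0.01, edgeR adjusted p = 0.967). The 2 falls were UBE2D2, a close relative of UBE2D1 (log2 -0.26, edgeR adjusted p = 0.00612), and RBCK1, of the linear ubiquitin ligase (-0.35, 0.00763). Both calls were lost on dropping shWNK1 replicate 1 (0.0574 and 0.0583), shWNK1 replicate 2 (0.142 and 0.113) or NS replicate 2 (0.137 and 0.134). RNF31, the catalytic partner of RBCK1, is shared over 96% of its principal transcript, so its level could not be read.

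Of 13 caspase substrates and nuclease genes, 5 fell, 1 rose and 7 were not called. PARP1, the DNA repair enzyme whose cleavage marks apoptosis, had 528 and 538 CPM with shWNK1 and 795 and 777 CPM with NS. It fell by 0.56 (SE 0.056, edgeR adjusted p = 9.1e-10). DFFA, the inhibitor of the apoptotic nuclease, fell by 0.53 (106 and 105 against 150 and 155 CPM, edgeR adjusted p = 8.6e-08). PAK2, a kinase that caspase cleavage switches on, fell by 0.42 (265 and 259 against 366 and 332 CPM, edgeR adjusted p = 1.3e-06). The falls of DFFB, the nuclease itself (log2 -0.34, edgeR adjusted p = 0.0319), and of LMNB1, a nuclear lamin (-0.17, 0.0248), were lost without shWNK1 replicate 1 (0.292 and 0.389) or shWNK1 replicate 2 (0.0753 and 0.0865), and that of DFFB also without NS replicate 2 (0.403) and in DESeq2 (0.106). SPTAN1, a spectrin that caspases cut, rose (630 and 667 against 531 and 497 CPM, log2 0.34, edgeR adjusted p = 1.9e-05). Transcript levels do not tell how much of any of these proteins was present, cleaved or active.

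**Figure D4:**
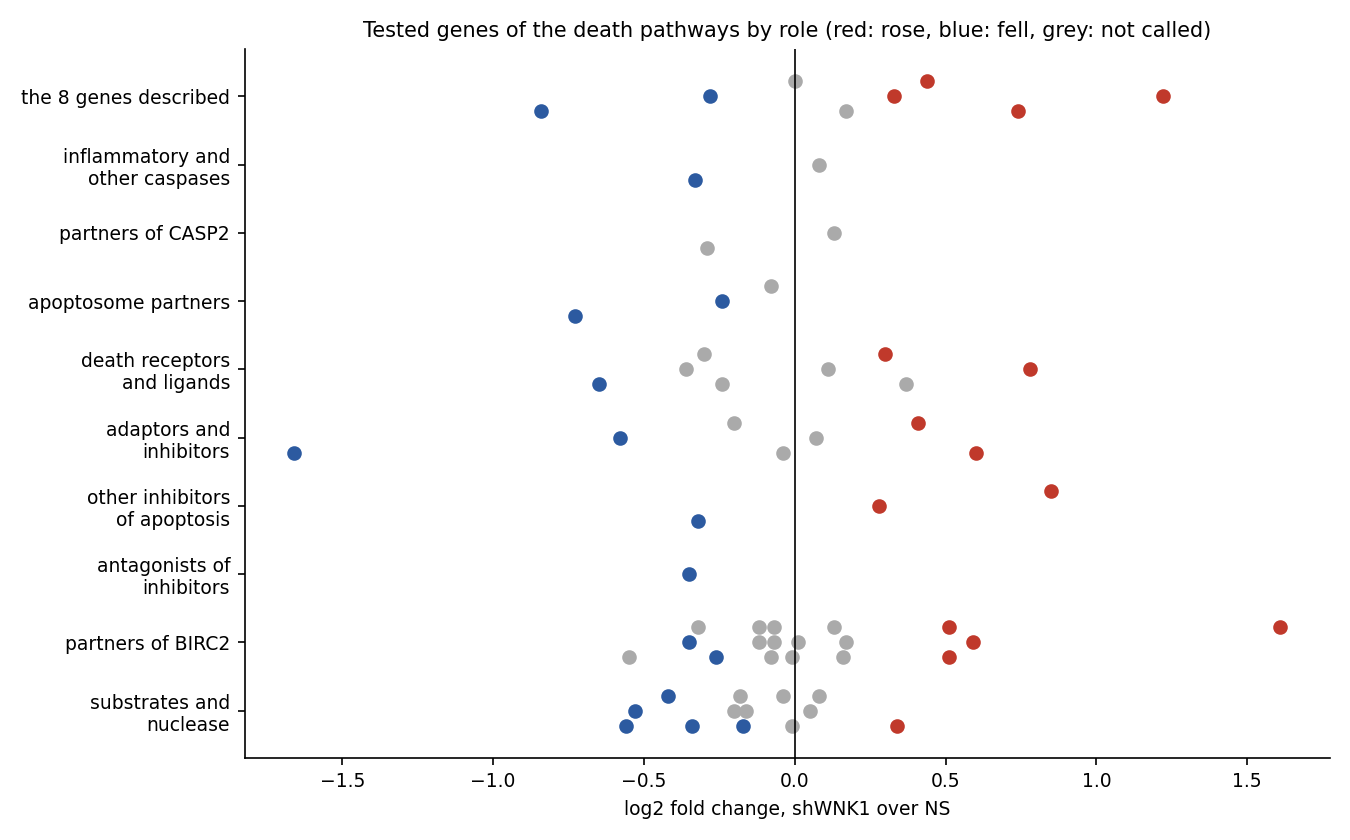
Log2 fold change, shWNK1 over NS, of the 8 genes (top) and of tested genes of the same routes by role, the downstream caspases left out; each point is 1 gene, red where it rose, blue where it fell and grey where it was not called, and vertical offsets only separate points. Every list with at least 7 tested genes holds both red and blue points; TRAF1 at 1.61 and MLKL at -1.66 are the outermost.

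The genes most like DIABLO over the 4 libraries were found by the distance between log2(CPM + 0.5) values centred on each gene's mean, among 10042 tested genes averaging 5 CPM or more. They were the orphan receptor GPR176 (distance 0.057), the mitochondrial dehydrogenase ALDH6A1 (0.0594) and the cytokine signalling inhibitor SOCS1 (0.0746). GPR176 had 10.3 and 9.83 CPM with shWNK1 and 4.34 and 5.08 CPM with NS, ALDH6A1 had 17.6 and 16.2 against 7.39 and 9.34 CPM, and SOCS1 had 7.80 and 7.69 against 3.34 and 3.84 CPM. With 4 libraries in 2 groups, such likeness means little more than a similar change.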

How the data were processed

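RNA was measured in 2 shWNK1 and 2 NS libraries; 1 shWNK1 title swaps letters of the gene name, which was taken as a misspelling. The deposited values are raw counts of fragments per gene, obtained with featureCounts 2.0.0 and GENCODE v34 without use of strand (setting 0), at a mapping quality of 20 or more and with both ends mapped, per the file headers. Trimmomatic for trimming and STAR for alignment to hg38 are named in the submitters' processing notes; versions are not given in the sources used here. Of 60728 genes listed, 1 broken over 3 lines and 45 Y copies of pseudoautosomal genes were left out. A count of 3, about the upper limit when 0 are seen, is 0.146 to 0.177 CPM.

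Counts were fitted with edgeR 4.0.16 in R 4.3.3 on all 4 libraries: filterByExpr (14864 genes), TMM, glmQLFit (robust), glmQLFTest, two-sided. The script was tested on simulated data. Shared exon bases were counted on the GENCODE v34 exons of the table, and principal transcripts and 3′ UTRs came from GENCODE v29. The 8 genes, the lists and the word AGTATC were chosen with earlier results of these data known. Named were all 8 genes, WNK1, up to 2 rising and 2 falling called genes of each list by smallest p, and the 3 genes most like the called one with the largest change; others were named after their values were seen. Alternatives were DESeq2 1.42.0, limma-voom 3.58.1, RLE or upper-quartile scaling, no low-count filter or 1 CPM in 2 libraries as the filter, a term for the replicate number, dropping 445 immunoglobulin and mitochondrial genes, a fold change of 1.2 as the null, and each library left out. Some listed genes are counted in the totals but not reported by name.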

Additional observations from a re-analysis of the deposited data

How the results depend on the processing

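Of the 104 estimates for the 8 genes under 13 alternatives, 94 stayed on the same side of the threshold, 10 lost the call with the same direction, and 0 called changes reversed. APAF1 and BIRC2, not called in the main fit, gave 13 each of the 94 and had no call to lose. The lost calls were those of DIABLO, CASP8, CASP10 and CASP9, so the pooled figure overstates how stable these were. BIRC2, not called and at 0.00, ran to either side, from -0.11 to 0.10. Leaving out 1 library gave 2 to 4 rises and 1 to 2 falls among the 8 genes, 9 to 20 falls among the listed pathway genes, and 1632 to 2778 rises and 1964 to 3024 falls among all genes. Against a fold change of 1.2, 1 of the 8 genes fell, as did 8 of the pathway genes, and 1376 of all genes rose and 1508 fell. Fits with 1 library left in a group assume that it varies like the other pair. With the replicate block, 4 and 2 of the 8 genes, 12 and 17 pathway genes, and 2539 and 2804 of all genes rose and fell. In both groups the deposited library names begin with A for replicate 1 and B for replicate 2. The labels do not say whether this marks pairs. The correlation of deviations between equal numbers was -0.00469, which cannot decide it. Depth limits DIABLO most, at 19 to 59 counts.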

Other observations

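The nearest tested genes on either side of the 8 make 16 distinct genes, of which 5 rose, 3 fell and 8 were not called, where 18.5% of all tested genes rose and 20.2% fell. They include CASP10, 1 of the rises, and CASP8, 1 of the falls, which lie beside each other and are themselves among the 8. Not all were close by: distances ran from 177 to 1293022 bases, the longest between APAF1 and BLTP3B, 1 of the rises. DNAJC16, a heat shock cochaperone gene on the opposite strand 279 bases from CASP9, rose with it (log2 0.31, SE 0.093, edgeR adjusted p = 0.00748). IKBIP, on the opposite strand 177 bases from APAF1, fell (log2 -0.57, SE 0.134, edgeR adjusted p = 9.7e-04) while APAF1 was not called. THOC2 and STAG2, on either side of XIAP, were not called (log2 0.18 and -0.10, edgeR adjusted p = 0.0554 and 0.271), and neither were MLXIP and VPS33A beside DIABLO (0.16 and 0.30, edgeR adjusted p = 0.0837 and 0.0614).

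The genes most like XIAP over the 4 libraries, looked up after its values were seen, were SYT1, a synaptic vesicle calcium sensor (distance 0.0115; 5.39 and 5.69 CPM with shWNK1 against 10.3 and 10.1 with NS), VARS1, the valine transfer RNA ligase (0.0234; 348 and 365 against 628 and 620 CPM), and MBTPS2, the membrane protease that activates sterol and stress transcription factors (0.0286; 17.8 and 19.5 against 33.8 and 33 CPM).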
